A study of Homo sapiens with 9 samples.

Results

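Genes of glycolysis and of the transcriptional response to low oxygen were followed in LX2 cells after depletion of YAP or TAZ. They were 40 genes given by symbol: 17 encode enzymes of the pathway from glucose to lactate, and 23 encode regulators and carriers of that pathway or other hypoxia-responsive proteins. All 40 were found by symbol among the 36601 genes of the count files. LX2 is an established human line derived from stellate cells of the liver, which store vitamin A and become collagen-producing myofibroblasts in fibrosis. The cells grew in DMEM with 10% FBS and received, by Lipofectamine RNAiMAX, 20 nM of a non-targeting siRNA (siNT), of an siRNA against YAP (siYAP) or of an siRNA against TAZ (siTAZ), and all were kept for 7 days. Each group held 3 libraries. The siRNA sequences were not given in the sources used here, no rescue or second siRNA was analysed here, and every group was the same line under the same stated culture conditions. The labels state no oxygen level and no medium change.

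Cells split glucose in a chain of enzymes that ends in pyruvate, and lactate dehydrogenase turns pyruvate into lactate. When oxygen falls, prolyl hydroxylases (the EGLN proteins) no longer mark the alpha subunits HIF-1α (gene HIF1A) and HIF-2α (EPAS1) for destruction by the VHL ubiquitin ligase. The stabilised subunit pairs with ARNT, binds short DNA elements with the core RCGTG, and raises transcription of glucose carriers, glycolytic enzymes, angiogenic factors and mitophagy receptors. HIF-1α is the form mostly tied to glycolytic genes. Oxygen acts on HIF-α mainly at the protein level, which RNA counts do not record. YAP (gene YAP1) and TAZ (WWTR1) are related coactivators at the end of the Hippo kinase cascade and bind DNA chiefly by way of TEAD proteins, and the question addressed here was how glycolytic and hypoxia-responsive transcripts differed after loss of each.

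The libraries held 16498508 to 18752805 counts in genes. Levels are given in CPM, which put the counts of each library on the same total after TMM correction, and a floor of 3 counts corresponded to 0.157 to 0.177 CPM. That floor covers counting error only. YAP1 fell from 209 ± 4.11 CPM in siNT to 26.3 ± 1.49 CPM in siYAP, and WWTR1 fell from 62.0 ± 5.50 CPM to 9.53 ± 0.917 CPM in siTAZ (SD, n = 3 throughout). The other target also differed in each arm: WWTR1 was at 75.8 ± 0.522 CPM in siYAP (log2 0.29, edgeR adjusted p = 6.31e-05) and YAP1 at 170.0 ± 8.01 CPM in siTAZ (log2 -0.30, adjusted p = 2.42e-08). The labels call the libraries biological replicates without saying what separated them, so the spread behind each p-value is that of these libraries and may be technical. The share of reads outside genes was 4.93 ± 0.196% in siNT, 6.68 ± 0.750% in siYAP and 5.57 ± 0.0524% in siTAZ. Mitochondrial genes took 1.37, 0.876 and 1.53% of gene counts in the same order, and 20147, 21294 and 19913 genes had a count on average. The part of these differences in the results was not tested. Of 15 stellate and fibroblast markers, LRAT had no count in any library, DES stayed below 0.3 CPM on average in each group, and COL1A1 reached 4168 CPM in siNT. Of the 13 tested, 6 were called higher and 6 lower after siYAP (edgeR, adjusted p under 0.05, median log2 0.65). After siTAZ 7 were higher and 1 lower (median 0.46). Among all genes tested, 33.8% and 33.4% were called higher and lower after siYAP, and 16.4% and 18.2% after siTAZ. Summed, the 15 markers ran from 9975 to 10101 CPM in siNT, 4786 to 4853 CPM in siYAP and 14722 to 14819 CPM in siTAZ. Such a sum is set mostly by its most abundant genes. The 16 markers of hepatocytes, leukocytes, endothelium and bile duct cells summed to 60.8 to 64.5, 101 to 107 and 71.8 to 79.5 CPM in the same order, mostly SOX9, and TTR had no count in any library. In bulk RNA, fewer cells of a type and less RNA per cell cannot be told apart.

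After siYAP the hypoxia-responsive genes outside the enzyme chain were mostly higher, while the enzymes divided. Among the 38 members with enough counts for a test, 23 were called higher and 10 lower (edgeR, adjusted p under 0.05), against 33.8% called higher and 33.4% called lower among all 15560 genes tested. The median log2 fold change was 0.32 for the members and 0.02 for all genes. Of the 17 enzymes, 9 were called higher and 6 lower, with a median of 0.12, and 2 passed a 2-fold change. Of the 21 other members tested, 14 were called higher and 4 lower, with a median of 0.53, and 7 were over 2-fold higher. CA9 and EGLN3 were below the count filter: CA9 had 0 to 6 counts and EGLN3 3 to 11 counts per library.

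After siTAZ, changes were smaller and more of the called members were lower. Of the 38 members, 5 were called higher and 15 lower by the same test, against 16.4% and 18.2% of all genes tested. Their median was -0.08, and 0.01 for all genes. Among the 17 enzymes, 8 were called lower and 0 higher. At an unadjusted p under 0.05 in edgeR the count of higher enzymes was also 0, as it was with DESeq2 and with limma-voom at the adjusted threshold. The 21 other members gave 5 higher and 7 lower, with a median of -0.07. Tested directly, siTAZ with siYAP, 27 members were lower and 8 higher in the siTAZ libraries, against 33.2% and 33.0% of all genes. The 2 comparisons with siNT share the same 3 control libraries, so their values are set side by side below and not correlated.

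The difference between the medians of enzymes and other members was -0.41 after siYAP and -0.02 after siTAZ. It is a description with no test, because members were not drawn at random. The siTAZ value is close to 0 and not stable in size: it was -0.00128 without siTAZ replicate 1 and -0.0587 without siTAZ replicate 3. With no filter on low counts it was -0.0934, but CA9 and EGLN3 then joined the other members. That value thus covers more genes. Library by library against the siNT mean, the median of the other members was 0.44, 0.60 and 0.62 in the siYAP libraries, and that of the enzymes 0.11, 0.13 and 0.08. In the siTAZ libraries the medians of the other members were -0.06, -0.02 and -0.18, and those of the enzymes -0.14, -0.13 and -0.06. All 40 members together took 1.10% of gene counts in siNT, 1.27% in siYAP and 0.973% in siTAZ, and the enzymes alone 0.908%, 0.964% and 0.805%.

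**Figure D1:**
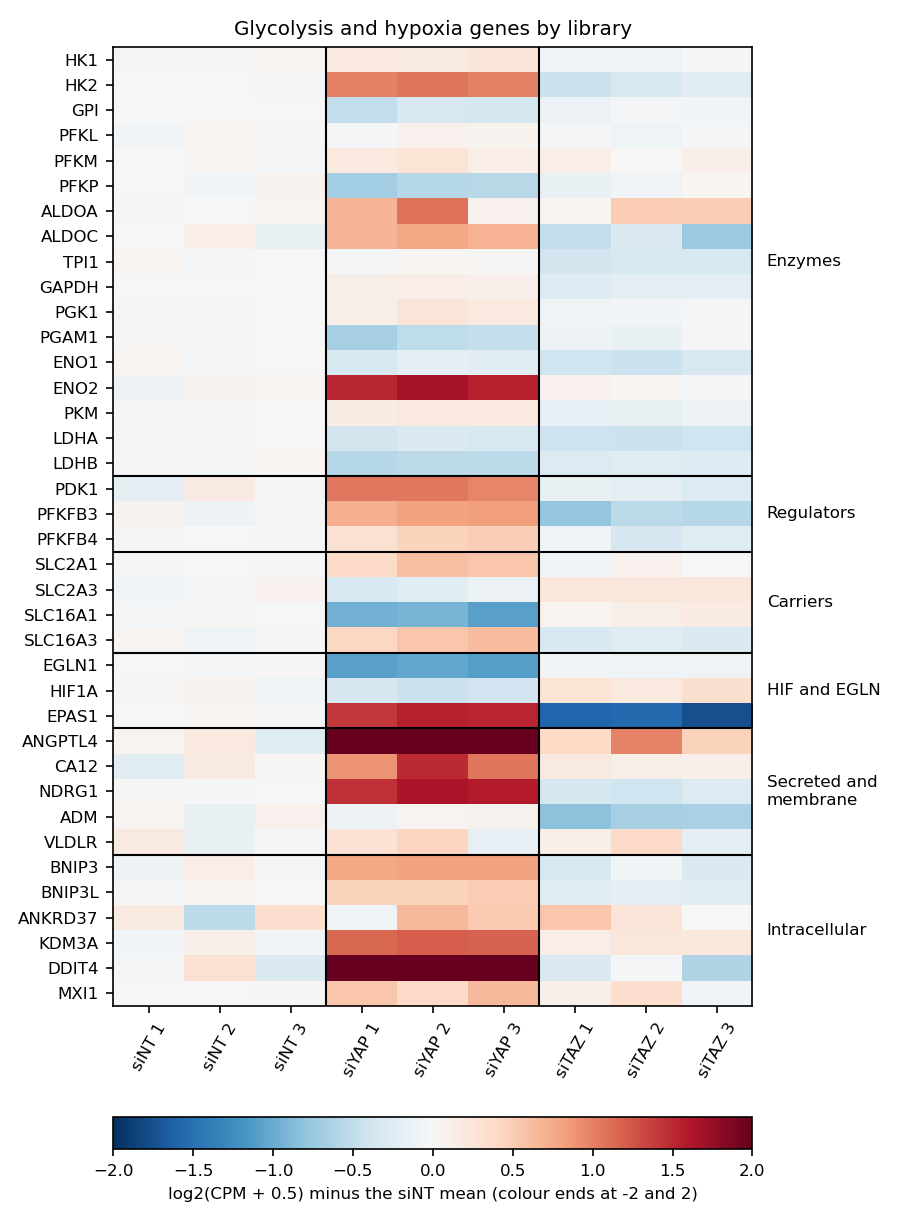
Level of each of the 38 tested genes (rows, grouped by role) in each of the 9 libraries (columns), as log2(CPM + 0.5) minus the mean of the siNT libraries, with colour ending at -2 and 2. The siYAP columns hold the strongest reds (ANGPTL4, DDIT4, ENO2, NDRG1, EPAS1) and the blues of EGLN1 and SLC16A1, and the siTAZ columns hold the blue of EPAS1.

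The 2 HIF-α transcripts moved in opposite directions, and each moved oppositely after the 2 siRNAs. EPAS1, which encodes HIF-2α (chr2:46293667-46386703 on GRCh38, plus strand), measured 382, 393 and 378 CPM in the siNT libraries, 1028, 1129 and 1110 CPM in siYAP and 127, 130 and 113 CPM in siTAZ. The 3 groups did not overlap. EPAS1 was 2.83-fold higher after siYAP (log2 1.502, SE 0.04, edgeR adjusted p = 2.47e-30) and 3.11-fold lower after siTAZ (log2 -1.64, SE 0.04, adjusted p = 2.07e-29), which placed siTAZ 8.81-fold below siYAP. HIF1A, which encodes HIF-1α (chr14:61695513-61748259, plus strand), measured 468, 484 and 436 CPM in siNT, 366, 343 and 356 CPM in siYAP and 557, 527 and 577 CPM in siTAZ, again with no overlap. Its changes were smaller: log2 -0.38 (SE 0.04, adjusted p = 4.83e-14) after siYAP and 0.26 (SE 0.04, adjusted p = 2.7e-08) after siTAZ.

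Per kilobase of exon, HIF1A stood above EPAS1 in siNT (89.8 against 52.6 CPM per kb), below it in siYAP (68.9 against 149 CPM per kb) and above it in siTAZ (107 against 16.9 CPM per kb). HIF1A thus made up 63.0 ± 0.830% of the pair in siNT, 31.6 ± 1.75% in siYAP and 86.4 ± 1.39% in siTAZ. With 3 libraries against 3, the smallest p an exact permutation test can give is 0.10, and both differences reached it (two-sided; 0.124 after adjustment over 26 such tests).

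Of the oxygen-sensing hydroxylases, EGLN1 encodes PHD2, the main enzyme that marks HIF-α in normal oxygen, and is itself a HIF target. EGLN1 (chr1:231363751-231425044, minus strand) measured 72.0, 70.4 and 72.6 CPM in siNT, 33.6, 34.5 and 32.9 CPM in siYAP and 68.9, 68.5 and 67.6 CPM in siTAZ. It was 2.13-fold lower after siYAP (log2 -1.09, SE 0.06, edgeR adjusted p = 1.12e-24) and did not pass the test after siTAZ (log2 -0.07, adjusted p = 0.389). EGLN3, which encodes PHD3, was near the floor, at 0.306, 0.165 and 0.497 CPM in siNT, siYAP and siTAZ, and was not tested. In each group EGLN1 made up over 99% of its pair with EGLN3 per kilobase. EGLN2, an EGLN gene outside the members, was at 14.6, 15.8 and 11.4 CPM per kb in siNT, siYAP and siTAZ. EGLN1 was at 9.86, 4.63 and 9.41 CPM per kb in the same order. EGLN2 did not pass the test after siYAP (log2 0.11, edgeR adjusted p = 0.0516). It was lower after siTAZ (log2 -0.35, edgeR adjusted p = 2.38e-07).

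Other parts of the HIF machinery were counted against the same shares of all genes (33.8% higher and 33.4% lower after siYAP, 16.4% and 18.2% after siTAZ). Of 14 tested genes for HIF partners, VHL complex subunits and coactivators, 3 were called higher and 7 lower after siYAP, and 3 higher and 10 lower after siTAZ. VHL, the substrate receptor of the ligase that destroys HIF-α, rose after both (log2 0.71 after siYAP and 0.31 after siTAZ). RBX1, the RING subunit of that ligase and of other cullin ligases, fell from 46.5 to 7.13 CPM after siYAP (log2 -2.70), and its value after siTAZ was -0.11 (adjusted p = 0.26). ARNT, the shared partner of HIF-α, gave 0.03 (adjusted p = 0.714) after siYAP and rose by 0.35 after siTAZ, whereas its relative ARNT2 fell by 2.25 and 0.52. EP300, a HIF coactivator, rose by 0.55 after siYAP and fell by 0.23 after siTAZ. The related coactivator gene CREBBP fell by 0.52 after siYAP and by 0.14 after siTAZ. CITED2, which competes with HIF-1α for EP300, fell by 0.41 and 0.46, and the chaperone gene HSP90AA1 fell by 0.63 and 0.35.

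**Figure D2:**
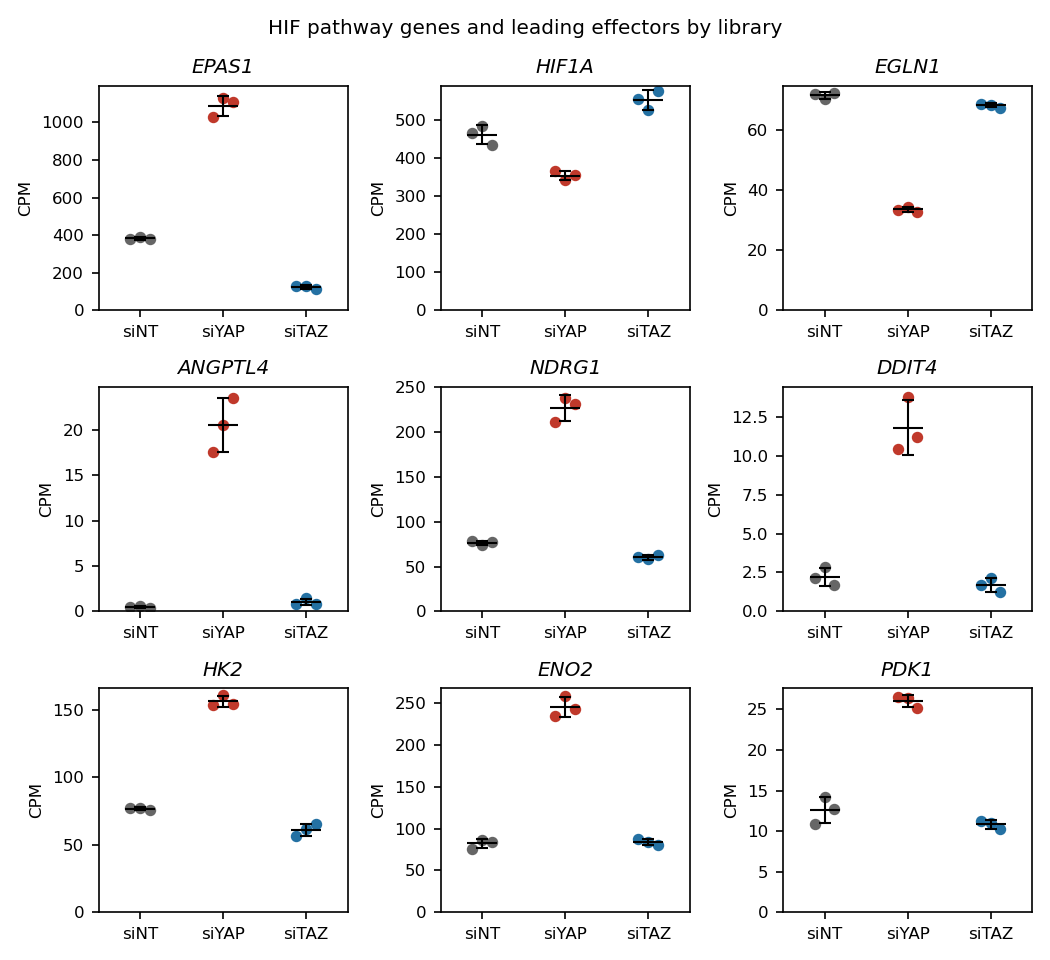
CPM of EPAS1, HIF1A, EGLN1, ANGPTL4, NDRG1, DDIT4, HK2, ENO2 and PDK1 in each library, with axes from 0; coloured points are the 3 libraries of a group, the black mark is their mean and the bars are SD. The siYAP libraries stand apart from siNT in all 9 panels, below it for HIF1A and EGLN1 and above it for the other 7, and EPAS1 has the siTAZ libraries far below siNT.

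Promoter sequence was examined because HIF acts through a short element. The core was searched as ACGTG or GCGTG on either strand in the 250 bases before each RefSeq start (GRCh38.p14), and a palindrome CACGTG counts on both strands. Of the 36 members found in the RefSeq promoter table, 31 (86.1%) held a core in at least 1 window, against 63.5% of the 11717 tested genes found there. Several starts raise that chance, and among genes with a single window 17 of 21 members held it, against 57.4% of 8433 genes. Enzymes held it in 14 of 17 cases and other members in 17 of 19. The core was present in 19 of the 21 members called higher after siYAP, in 6 of the 8 called lower and in all 5 that were not called. Members of either direction thus held the core. CA9 and EGLN3, also among the 36, were not tested, and 1 of these 2 held a core. The members were chosen as glycolysis and hypoxia-responsive genes, so their share of cores is descriptive. The TEAD core GGAATG was in 5 of 36 members (13.9%) and in 13.2% of the tested genes. A match is only a run of letters, and no binding was measured.

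Windows of 6 members are printed 5′ to 3′ on the gene's strand with the cores and their reverse complements in capitals. ANGPTL4, ENO2, PDK1 and BNIP3 were higher after siYAP, and EGLN1 and LDHA were lower. For each gene the first listed window with a core is printed, so these windows were picked for holding it. They hold from 1 core in ANGPTL4, ENO2 and EGLN1 to 5 in LDHA and 6 in BNIP3. Of the windows not printed, window 1 of PDK1 holds 0 cores and window 2 of LDHA holds 1. The RefSeq starts used for all 6 lie inside the GENCODE 29 spans of their genes. For EGLN1 the sequence after the start was found near the start of 0 GENCODE transcripts, so its window may not be the promoter in use.
ANGPTL4, chr19:8363905-8364154, plus strand: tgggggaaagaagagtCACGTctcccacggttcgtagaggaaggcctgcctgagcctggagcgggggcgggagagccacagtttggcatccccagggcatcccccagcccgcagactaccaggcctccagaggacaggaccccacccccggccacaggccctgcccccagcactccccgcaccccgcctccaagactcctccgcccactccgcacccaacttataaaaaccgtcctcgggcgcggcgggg
ENO2, chr12:6914330-6914579, plus strand: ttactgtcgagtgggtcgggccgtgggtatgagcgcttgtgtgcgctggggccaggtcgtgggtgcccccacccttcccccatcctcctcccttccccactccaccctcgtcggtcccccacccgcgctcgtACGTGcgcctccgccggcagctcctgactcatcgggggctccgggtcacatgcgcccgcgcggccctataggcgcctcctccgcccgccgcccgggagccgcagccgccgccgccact
PDK1, chr2:172555840-172556089, plus strand: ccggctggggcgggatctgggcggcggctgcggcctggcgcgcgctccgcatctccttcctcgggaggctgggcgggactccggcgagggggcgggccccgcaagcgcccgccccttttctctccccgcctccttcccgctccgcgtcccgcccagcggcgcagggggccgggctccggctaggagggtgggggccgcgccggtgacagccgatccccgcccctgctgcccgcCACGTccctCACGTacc
BNIP3, chr10:131981924-131982173, minus strand: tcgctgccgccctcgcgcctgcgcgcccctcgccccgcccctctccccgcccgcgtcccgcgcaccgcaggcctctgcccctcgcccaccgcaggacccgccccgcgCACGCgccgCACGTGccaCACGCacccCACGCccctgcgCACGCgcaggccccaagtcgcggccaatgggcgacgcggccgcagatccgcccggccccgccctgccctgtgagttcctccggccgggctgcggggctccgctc
EGLN1, chr1:231422288-231422537, minus strand: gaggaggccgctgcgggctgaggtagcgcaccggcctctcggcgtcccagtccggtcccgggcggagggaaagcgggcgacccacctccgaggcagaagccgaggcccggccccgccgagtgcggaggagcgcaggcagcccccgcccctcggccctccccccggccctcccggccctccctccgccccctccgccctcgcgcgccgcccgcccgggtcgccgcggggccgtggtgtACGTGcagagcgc
LDHA, chr11:18394313-18394562, plus strand: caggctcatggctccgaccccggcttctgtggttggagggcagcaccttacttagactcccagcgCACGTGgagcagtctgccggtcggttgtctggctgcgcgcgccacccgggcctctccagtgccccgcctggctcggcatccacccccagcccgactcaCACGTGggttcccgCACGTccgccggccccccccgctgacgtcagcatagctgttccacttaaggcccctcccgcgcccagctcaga

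The secreted and membrane effectors held the largest rise. ANGPTL4, a secreted inhibitor of lipoprotein lipase (chr19:8363289-8374373), measured 0.531, 0.633 and 0.340 CPM in the siNT libraries, which is 6 to 11 counts. In siYAP it measured 17.6, 20.5 and 23.5 CPM and in siTAZ 0.812, 1.47 and 0.865 CPM. The siYAP libraries stood far above all others, at 40.5-fold over siNT (log2 5.34, SE 0.23, edgeR adjusted p = 2.94e-30). The rise after siTAZ (log2 1.06, SE 0.37, adjusted p = 0.0181) rested on few counts and was lost in a fit of these groups alone, with limma-voom, and without siNT replicate 3 or siTAZ replicate 2, where the adjusted p ran from 0.0813 to 0.187.

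NDRG1 is a hypoxia-induced protein used as a hypoxia marker. It measured 78.1, 74.3 and 76.9 CPM in siNT, 211, 238 and 231 CPM in siYAP and 60.1, 58.0 and 63.2 CPM in siTAZ. It rose 2.97-fold after siYAP (log2 1.57, SE 0.05) and fell by 0.34 on the log2 scale after siTAZ (SE 0.05, adjusted p = 1.29e-07). CA12, a membrane carbonic anhydrase, rose from 2.40 to 6.02 CPM after siYAP (log2 1.33, SE 0.23) and was at 2.66 CPM in siTAZ. ADM encodes adrenomedullin, a vasodilator peptide that is among the usual hypoxia markers, and it differed in siTAZ only. It measured 61.2, 53.5 and 62.9 CPM in siNT and 54.5, 61.2 and 61.8 CPM in siYAP, which overlap (log2 -0.00, adjusted p = 0.987), and 33.4, 37.2 and 37.4 CPM in siTAZ (log2 -0.72, SE 0.07, adjusted p = 1.42e-13). VLDLR, a lipoprotein receptor, passed neither test (log2 0.21 and 0.12).

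Of the 6 intracellular effectors, 5 were called higher after siYAP, where 33.8% of all genes were. DDIT4, the stress-induced inhibitor of mTORC1 known as REDD1, measured 2.12, 2.82 and 1.70 CPM in siNT, 10.4, 13.8 and 11.2 CPM in siYAP and 1.68, 2.13 and 1.27 CPM in siTAZ. It was 5.32-fold higher after siYAP (log2 2.41, SE 0.20, adjusted p = 1.14e-16) and did not pass the test after siTAZ (log2 -0.38, adjusted p = 0.265). An antisense gene, DDIT4-AS1, overlaps 847 of its 2058 exonic bases, and without a known strand setting their reads cannot be told apart. KDM3A, a histone H3K9 demethylase induced by HIF, measured 45.4, 50.6 and 45.4 CPM in siNT, 105, 110 and 107 CPM in siYAP and 51.7, 55.4 and 55.3 CPM in siTAZ, with a log2 fold change of 1.19 after siYAP (SE 0.06) and 0.20 after siTAZ (SE 0.06, adjusted p = 0.0064). The mitophagy receptors BNIP3 and BNIP3L rose by 0.80 and 0.47 after siYAP and were lower by 0.22 and 0.21 after siTAZ. For BNIP3 the siNT and siTAZ libraries overlapped (57.6, 67.5 and 60.4 CPM against 49.4, 59.5 and 50.1 CPM), and that call was lost without siNT replicate 2 (adjusted p = 0.0810). MXI1, a MYC antagonist, rose by 0.55 after siYAP, with 0.14 (adjusted p = 0.361) after siTAZ. ANKRD37, a small HIF target, had 8 to 32 counts per library and passed neither test.

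All 3 glycolytic regulators were called higher after siYAP, against 33.8% of all genes. PDK1 is a kinase that shuts pyruvate dehydrogenase and so keeps pyruvate from the mitochondria. It measured 10.9, 14.2 and 12.7 CPM in siNT, 26.5, 26.5 and 25.1 CPM in siYAP and 11.3, 11.0 and 10.3 CPM in siTAZ. Its log2 fold change was 1.05 after siYAP (SE 0.11, adjusted p = 1.88e-13), and siTAZ overlapped siNT. PDK2 and PDK3, related kinases outside the members, fell by 0.68 and 0.80 after siYAP (edgeR adjusted p = 7.92e-07 and 3.30e-10). Neither passed the test after siTAZ. Per kilobase both stood above PDK1 in each group. PFKFB3 and PFKFB4 make fructose 2,6-bisphosphate, the activator of phosphofructokinase. PFKFB3 measured 52.1, 46.0 and 50.2 CPM in siNT, 82.3, 86.2 and 88.6 CPM in siYAP and 28.7, 34.0 and 33.1 CPM in siTAZ, so that the 3 groups were separate. It rose by 0.79 (SE 0.06) after siYAP and fell by 0.63 (SE 0.07, adjusted p = 1.02e-11) after siTAZ. PFKFB4 rose by 0.43 after siYAP (SE 0.11, adjusted p = 0.000742) and gave -0.23 (adjusted p = 0.139) after siTAZ.

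The glucose and lactate carriers divided. SLC2A1 encodes GLUT1, the basal glucose carrier, and measured 112, 110 and 108 CPM in siNT, 144, 167 and 162 CPM in siYAP and 106, 117 and 109 CPM in siTAZ (log2 0.52 after siYAP and 0.01 after siTAZ). SLC2A3, which encodes the high-affinity carrier GLUT3, was lower by 0.21 after siYAP (SE 0.06, adjusted p = 0.000668) and higher by 0.23 after siTAZ (SE 0.05, adjusted p = 0.000595). SLC16A1 encodes MCT1, which carries lactate and pyruvate in either direction. It measured 116, 120 and 118 CPM in siNT, 60.4, 61.9 and 55.5 CPM in siYAP and 123, 129 and 133 CPM in siTAZ, 1.99-fold lower after siYAP (log2 -0.99, SE 0.05, adjusted p = 5.35e-27). Its value after siTAZ was 0.12 (adjusted p = 0.0483), a call lost with DESeq2, with RLE scaling, with no filter and without any 1 of 5 of the 6 libraries compared (adjusted p up to 0.200). SLC16A3 encodes MCT4, a HIF-induced lactate exporter, and went the opposite way to SLC16A1: 130, 119 and 128 CPM in siNT, 167, 184 and 193 CPM in siYAP and 102, 106 and 102 CPM in siTAZ (log2 0.53 and -0.28). Per kilobase, SLC16A1 made up 61.4 ± 1.504% of this pair in siNT, 35.7 ± 2.70% in siYAP and 67.7 ± 0.885% in siTAZ.

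**Figure D3:**
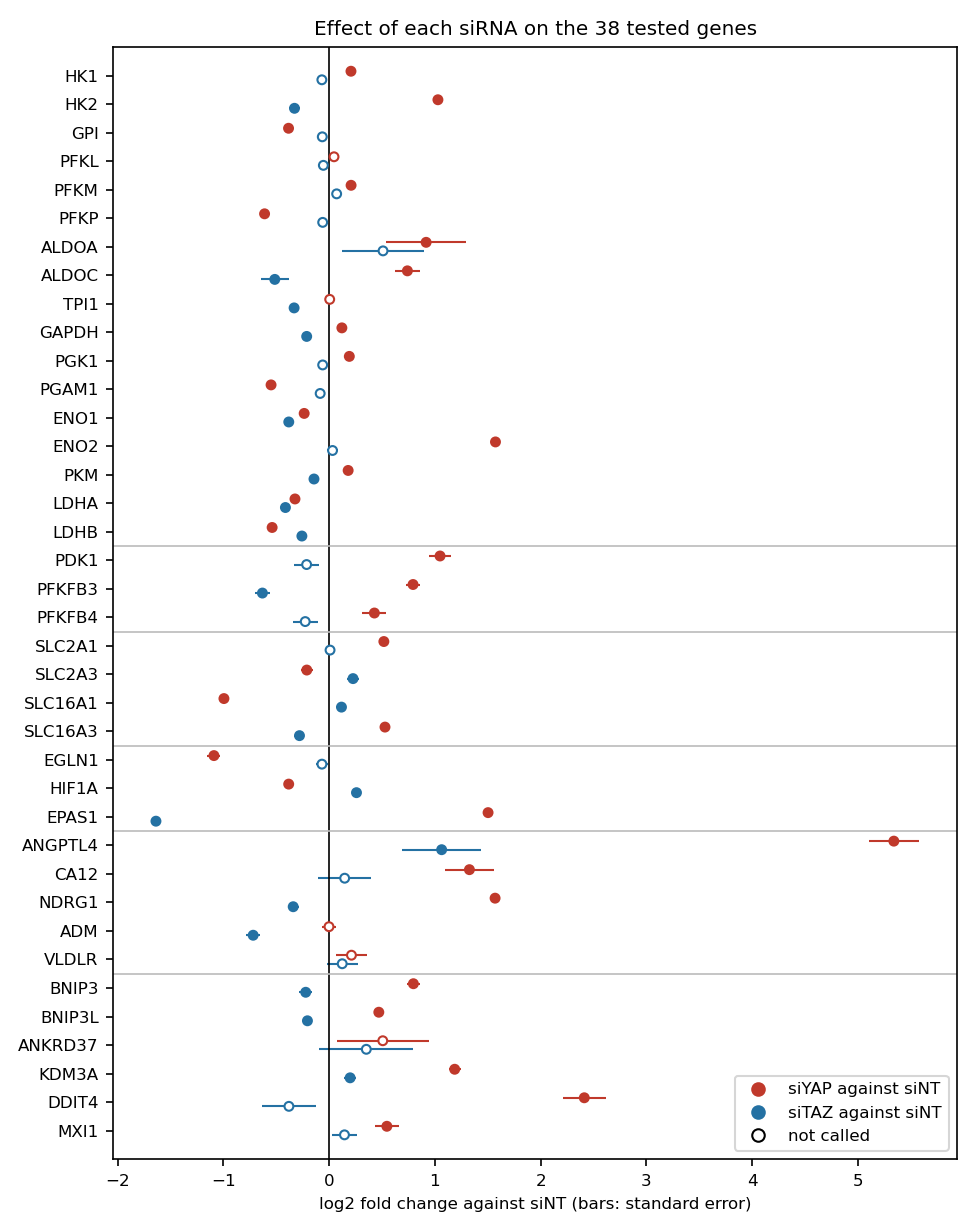
Log2 fold change against siNT of each of the 38 tested genes (rows, grouped by role from enzymes at the top to intracellular effectors at the bottom) after siYAP (red) and siTAZ (blue); bars are standard errors and open points did not pass the test. Enzymes lie between -0.61 and 1.57 after siYAP, and ANGPTL4 at 5.34 is the point farthest from 0.

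Within the enzyme chain, the 2 members over 2-fold higher after siYAP, HK2 and ENO2, were each the less abundant form of a pair per kilobase in siNT. HK2, the inducible hexokinase of the first step (chr2:74833981-74893359), measured 77.3, 77.3 and 75.5 CPM in siNT, 154, 161 and 154 CPM in siYAP and 56.6, 61.6 and 65.2 CPM in siTAZ. The groups were separate, at 2.04-fold higher after siYAP (log2 1.03, SE 0.05, adjusted p = 3.17e-28) and -0.33 after siTAZ (SE 0.05, adjusted p = 5.54e-07). HK1, the constitutive hexokinase, rose by 0.21 after siYAP. ENO2, an enolase usually used as a neuronal marker (chr12:6913745-6923698), measured 76.0, 86.7 and 84.3 CPM in siNT, 234, 258 and 242 CPM in siYAP and 87.5, 84.3 and 80.8 CPM in siTAZ. The siYAP libraries were 2.97-fold higher (log2 1.57, SE 0.05, adjusted p = 1.11e-38), and siTAZ overlapped siNT (log2 0.03, adjusted p = 0.667). ENO1, the common enolase, was at 280, 238 and 215 CPM per kb in siNT, siYAP and siTAZ, against 19.2, 57.2 and 19.7 CPM per kb for ENO2, and ENO1 fell by 0.24 and 0.38.

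The remaining enzymes moved by less than 2-fold. At the step of phosphofructokinase, the committed step of glycolysis, PFKP fell by 0.61 after siYAP (299 ± 12.8 to 196 ± 10.1 CPM), PFKM rose by 0.21 and PFKL gave 0.05 (adjusted p = 0.267). GPI, which makes fructose 6-phosphate, fell by 0.38, and the phosphoglycerate mutase PGAM1 fell by 0.55. In the middle of the chain, GAPDH measured 1403, 1402 and 1406 CPM in siNT, 1529, 1538 and 1510 CPM in siYAP and 1170, 1240 and 1225 CPM in siTAZ, a gene often used as a reference for RNA levels. Its log2 fold changes were 0.12 (SE 0.03, adjusted p = 0.00015) and -0.21 (SE 0.03, adjusted p = 5.19e-09). TPI1 gave 0.01 (adjusted p = 0.89) after siYAP and fell by 0.33 after siTAZ. PGK1, the first ATP-yielding enzyme, rose by 0.19 after siYAP, and PKM, the pyruvate kinase of most tissues, by 0.18, while PKM fell by 0.14 after siTAZ. The aldolase ALDOC rose from 11.4 to 19.0 CPM after siYAP (log2 0.74) and fell to 7.96 CPM after siTAZ (log2 -0.51, adjusted p = 0.00128).

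Both lactate dehydrogenase subunits fell after both siRNAs. LDHA, the muscle-type subunit and a textbook HIF-1 target, measured 543, 527 and 536 CPM in siNT, 417, 436 and 431 CPM in siYAP and 401, 397 and 408 CPM in siTAZ. Its log2 fold changes were -0.32 (SE 0.03, adjusted p = 9.54e-14) and -0.41 (SE 0.03, adjusted p = 4.4e-17). LDHB, the heart-type subunit, measured 555, 553 and 579 CPM in siNT, 377, 393 and 391 CPM in siYAP and 464, 476 and 470 CPM in siTAZ (log2 -0.54 and -0.26). The siNT libraries were the highest of the 3 groups for LDHA, LDHB and ENO1.

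Counting bears on some of these values. ALDOA, usually an abundant enzyme gene, had 17 to 53 counts per library, and 1657 of its 3916 exonic bases lie in another gene model on the same strand (GENCODE 29), so its level and its call after siYAP (log2 0.92, adjusted p = 0.0273) are uncertain. That call was lost with DESeq2, with limma-voom and without any siNT library or siYAP replicate 1 or 2 (adjusted p 0.0533 to 0.245). GENCODE 29 lists 62 pseudogenes named after GAPDH, 39 after BNIP3, 13 after PGAM1, 6 after LDHA, 5 after PKM and 4 each after TPI1 and ENO1, and reads that match several copies may be missing from these counts. There were 6 members (ALDOA, ALDOC, GAPDH, CA9, ANKRD37 and DDIT4) that share over 10% of their exonic bases with another gene of the files.

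The balance between paralogs was described by shares. Levels per exonic kilobase were set as shares in 11 families, giving 13 shares. The siYAP libraries did not overlap siNT in 11 of them and the siTAZ libraries in 10. Non-overlap was common in the CPM of single genes: of all tested genes, 35.8% lay wholly above and 34.7% wholly below siNT in siYAP. In siTAZ these were 21.8% and 22.8%. No such background was computed for shares, and the phosphofructokinase shares are parts of the same total. Each non-overlapping share has the exact permutation p of 0.10 that is the smallest possible here (adjusted 0.124 over 26 tests), so none passes 0.05. ENO1 went from 93.6 ± 0.553% of the enolase pair to 80.6 ± 0.468% after siYAP and 91.6 ± 0.569% after siTAZ. HK1 went from 71.8 ± 0.905% of the hexokinase pair to 59.0 ± 1.00% and 75.3 ± 1.09%. PFKP made up 58.3 ± 1.39% of the phosphofructokinases in siNT, 46.0 ± 0.923% in siYAP and 57.4 ± 1.61% in siTAZ. PFKFB3 made up 79.0 ± 1.16% of its pair with PFKFB4 in siNT, 82.9 ± 0.396% in siYAP and 73.9 ± 3.58% in siTAZ. GLUT1 (SLC2A1) went from 65.4 ± 1.61% of the carrier pair to 75.7 ± 0.923% after siYAP and 61.8 ± 1.23% after siTAZ. Shares of the lactate dehydrogenases moved less, with LDHA at 31.4, 34.7 and 29.1%.

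**Figure D4:**
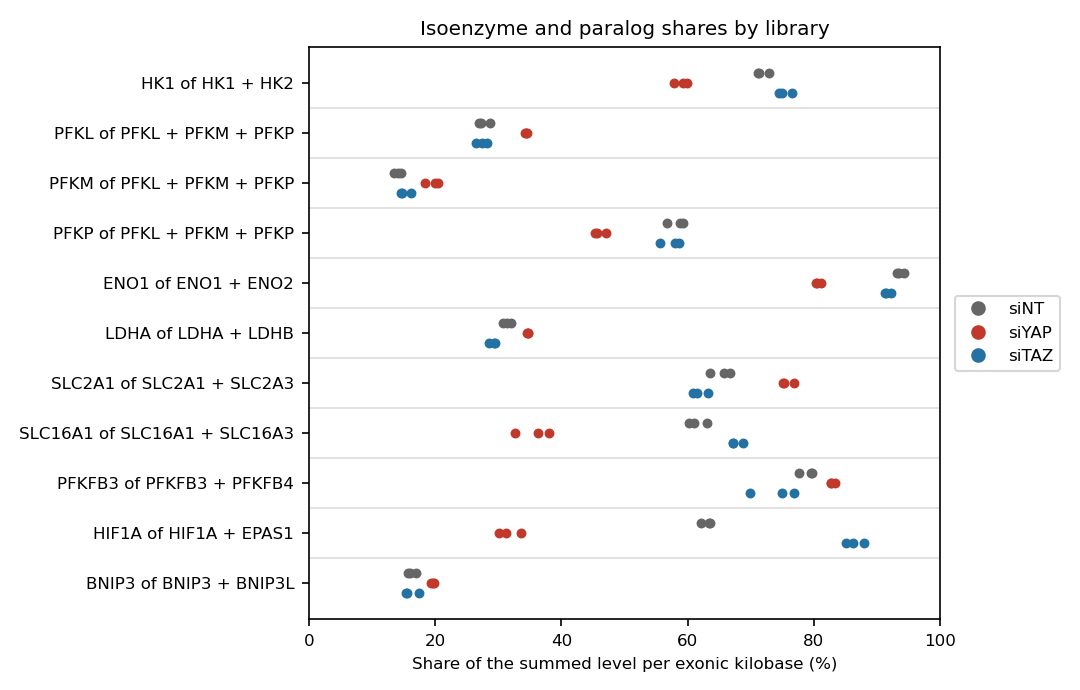
Share of each named gene in the summed level per exonic kilobase of its family, in percent, with 1 point per library (siNT grey, siYAP red, siTAZ blue). The share of HIF1A spans the widest range, from 31.6% on average in siYAP to 86.4% in siTAZ, and the pair with EGLN1 and the aldolases are not drawn.

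Other genes of the pathways, taken from lists of related genes, were counted the same way. Among all genes tested, 33.8% were called higher and 33.4% lower after siYAP, and 16.4% and 18.2% after siTAZ, and each list below is to be read against these shares. Of 33 tested hypoxia-responsive genes outside the 40, 22 were called higher and 4 lower after siYAP (median 0.60), and 14 higher and 6 lower after siTAZ (median 0.12). STC1, a hypoxia-induced secreted glycoprotein, rose from 28.8 to 861 CPM after siYAP (log2 4.90) and to 40.7 CPM after siTAZ (log2 0.50). P4HA2, a collagen prolyl hydroxylase, rose by 1.69 and 0.12. The transferrin receptor TFRC fell by 1.18 after siYAP and rose by 0.13 after siTAZ, and the collagen crosslinker LOXL2 fell by 0.54 and rose by 0.32. BHLHE41, a transcriptional repressor, rose by 1.06 and 0.84. PLOD2, a collagen lysyl hydroxylase, and STC2 did not pass the test after siYAP (-0.00 and 0.05) and fell by 0.60 and 0.33 after siTAZ, as ADM did.

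Of 13 tested genes for the entry of pyruvate into mitochondria or its control, 9 were called lower and 1 higher after siYAP. The 69.2% called lower compares with 33.4% of all genes. After siTAZ 3 were lower and 2 higher, 23.1% and 15.4%, near the shares of all genes. The list mixes genes that serve this entry with kinases that oppose it, so its counts give no direction for entry. Such kinases, PDK2 and PDK3, were among the genes lower after siYAP (log2 -0.68 and -0.80). PDHX and PDHB, structural and catalytic parts of pyruvate dehydrogenase, fell by 1.63 and 0.94 after siYAP, and PDHA1 fell by 0.39. After siTAZ PDHB rose by 0.21, PDHA1 fell by 0.16, and PDHX gave 0.06 (adjusted p = 0.691). PDP2, the phosphatase that reverses PDK action, rose by 0.54 after siYAP and fell by 0.66 after siTAZ, and PDPR, a regulatory subunit of that phosphatase, rose by 0.17 after siTAZ.

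Glucose sensing genes driven by the MondoA and ChREBP factors gave 4 of 4 higher after siYAP and 3 of 4 after siTAZ. TXNIP, which lowers glucose uptake, rose from 73.3 to 223 CPM after siYAP (log2 1.61) and to 132 CPM after siTAZ (log2 0.85), and its relative ARRDC4 rose by 1.47 and 0.57. Of the other glycolytic isoenzymes and regulators, 5 of 18 had enough counts. TIGAR, which opposes fructose 2,6-bisphosphate, rose by 1.11 and 0.28, BPGM fell by 1.06 after siYAP, PFKFB2 rose by 0.43 after siYAP, and the muscle enolase ENO3 rose by 0.45 and 0.68. Among 10 further carriers tested, 5 were higher and 2 lower after siYAP, and 2 higher and 1 lower after siTAZ, the last near the shares of all genes (20.0% and 10.0%, against 16.4% and 18.2%). BSG, the chaperone of the lactate carriers, rose by 0.22 and 0.24, whereas EMB, which serves the same role, fell by 1.10 after siYAP. SLC16A7, which encodes MCT2, rose by 0.91 and fell by 0.39, and SLC2A10 fell by 1.02 and rose by 0.42.

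Glycogen and gluconeogenesis genes gave 5 higher and 5 lower of 13 after siYAP, and 5 higher and 4 lower after siTAZ. After siYAP these are 38.5% in each direction, near the 33.8% and 33.4% of all genes. PPP1R3B and PPP1R3C, which direct protein phosphatase to glycogen, rose by 1.32 and 1.30 after siYAP. PPP1R3B rose by 1.41 after siTAZ as well, where PPP1R3C gave -0.19 (adjusted p = 0.171). The glycogen phosphorylases PYGL and PYGB fell by 1.25 and 0.63 after siYAP and by 0.45 and 0.15 after siTAZ, and PGM1, which links glycogen to glycolysis, rose by 0.30 after siTAZ. Among relatives of ANGPTL4 and the lipases it acts on, 3 of 6 tested were higher and 1 lower after siYAP. The endothelial lipase gene LIPG rose from 5.88 to 66.1 CPM after siYAP (log2 3.49), ANGPTL2 rose by 1.23 and 0.51, and the lipase maturation factor LMF1 fell by 0.87 after siYAP. LPL, the lipase that ANGPTL4 inhibits, was at 0.963 CPM in siNT and 1.11 CPM in siYAP (log2 0.20, adjusted p = 0.64) and rose to 3.60 CPM in siTAZ (log2 1.90, adjusted p = 2.91e-06).

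An siRNA can also lower transcripts whose 3' UTR matches its seed. The 6-base words GGATAA and ATGAAC were picked from these same data as most tied to falls after siYAP and siTAZ, so their counts are descriptive. The siRNA sequences were not given, so a match of these words to a seed was not tested. Among 13257 tested genes with a 3' UTR, GGATAA was in 25.5%, and in 31.1% of those called lower after siYAP. It was in 6 of 38 members, namely SLC16A1, EGLN1 and HIF1A among the 10 called lower, HK1 and BNIP3 among the 23 called higher, and VLDLR. ATGAAC was in 30.4% of genes and in 40.8% of those called lower after siTAZ. It was in 11 of 38 members, among them EPAS1, PFKFB3, BNIP3 and BNIP3L of the 15 called lower, and SLC2A3 and SLC16A1 of the 5 called higher. Neither word was more frequent among the members than among all genes, nor among members called lower than among all genes called lower. Because the words were picked for falls, leaving out their holders tends to remove members called lower. Without the holders of GGATAA, 13 other members were called higher after siYAP and 1 lower. Without the holders of either word, 8 of the 21 other members tested were left, of which 6 were called higher and 0 lower after siYAP. The part of these words in the falls of EGLN1, SLC16A1, HIF1A and EPAS1 was not tested.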

How the data were processed

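The members and lists were chosen with earlier results of these data known. The authors deposited raw read counts per Ensembl gene, 1 table per library. Per the submitters' processing notes, the tools were STAR 2.5.0c and HTSeq, with Trim Galore, Picard and SAMtools, and the build named is mm10, a mouse build, although the gene IDs in the files are human; the build, annotation release and strand setting behind the counts are therefore not known. Per the labels' protocols, libraries came from Trizol-extracted RNA with a SMARTER mRNA kit. Rows that name no gene were left out of library sizes. Symbols came from a gene name table (36366 IDs) and GENCODE 29 (219 IDs), which also gave coordinates on GRCh38 and exonic lengths.

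The tests used edgeR 4.0.16 under R 4.3.3: filterByExpr (minimum count 10, minimum total 15) kept 15560 genes, libraries were scaled by TMM, and a robust quasi-likelihood model was fitted over all 9 libraries. Tests were two-sided with Benjamini-Hochberg adjustment over the 15560 genes, and genes were called at an adjusted p under 0.05. The genes named were all 40 members, YAP1 and WWTR1. From each further list, up to 2 genes per direction and comparison with siNT with the smallest p were added. COL1A1, DES, LRAT, SOX9, TTR, EGLN2, PDK2, PDK3 and CREBBP were picked once their values had been seen. The alternatives tried were scaling by RLE or by the upper quartile, testing without a filter or with a CPM of at least 1 in 3 libraries, a replicate block, a fit of the compared groups alone, DESeq2 1.42.0, limma-voom (limma 3.58.1), each library left out, an adjusted p under 0.01 and a test against a fold of 1.5.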

Additional observations from a re-analysis of the deposited data

How the results depend on the processing

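The difference of medians between enzymes and other members kept its sign in all 36 alternative values, pooled over the comparisons. These came from RLE or upper-quartile scaling, no filter, and each library left out, also those outside the comparison. The other alternatives were not run for it. Its size after siTAZ ran from -0.0587 to -0.00128 with a library left out. It was -0.0934 with no filter, where CA9 and EGLN3 also count among the other members. Leaving out ALDOA was added after seeing the data, for counts of called genes and not for medians. ALDOA is 1 of the 9 enzymes called higher after siYAP. Most enzyme changes were small. Tested against a fold of 1.5, enzymes called after siYAP fell to 2 higher and 0 lower, and other members to 9 higher and 2 lower. After siTAZ the same test left 0 enzymes lower, 0 other members higher and 1 lower, and for siTAZ with siYAP it left 0 enzymes higher, 3 enzymes lower and 2 other members higher. Other members called higher after siTAZ numbered 3 at an adjusted p under 0.01, and 3 to 5 with each library left out, with 3 without siNT replicate 3 or siTAZ replicate 2. Leaving out members by the 3' UTR words above was added after seeing the data, and the sets are smaller by construction. The words were picked for falls against siNT, so this choice also tends to remove members called lower against siNT. Without holders of the word of the siRNA compared, other members gave 13 higher and 1 lower after siYAP and 3 higher and 3 lower after siTAZ. Without holders of either word they gave 6 higher and 0 lower after siYAP, 2 higher and 3 lower after siTAZ, and 0 higher and 7 lower for siTAZ with siYAP.

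With no exonic length, the share of ENO1 moved by -11.0 points after siYAP, and that of HIF1A by -29.99 points after siYAP and 27.1 points after siTAZ. Leaving out single libraries turned the sign of small share differences, which ran from -0.681 to 0.273 points for PFKL, -1.65 to 0.0464 for PFKP and -0.831 to 0.207 for BNIP3 after siTAZ, and from -0.586 to 1.98 for ALDOA and -0.130 to 0.02996 for EGLN1 after siYAP. Log2 fold changes that turned sign were of genes that were not called. TPI1 after siYAP gave -0.0216 with no filter and -0.00545 in the compared groups alone, and -0.0251 to 0.0195 with a library left out. ADM after siYAP gave 0.0308 with upper-quartile scaling, 0.0031 with the stricter filter, and -0.0813 to 0.0471 with a library left out. Leaving out libraries gave -0.0217 to 0.0697 for ENO2, -0.0354 to 0.0398 for SLC2A1 and -0.0308 to 0.256 for VLDLR after siTAZ, and, for siTAZ with siYAP, -0.410 to 0.0637 for ANKRD37 and -0.241 to 0.0558 for VLDLR.

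The replicate numbers share only a number: deviations of same-numbered libraries correlated at -0.03 to 0.01. With the replicate number as a block, enzymes gave 9 higher and 6 lower after siYAP and 0 higher and 8 lower after siTAZ, other members 14 and 4, and 5 and 7, and it changed no call of a member. Apart from the test against a fold of 1.5, 7 of the 88 called member comparisons lost their call in at least 1 alternative. CA9 and EGLN3, near the floor of 3 counts, were not tested with the filter on, and EGLN3 had 7 to 11 counts in siTAZ against 3 in each siYAP library.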
